A study of Mus musculus with 12 samples.

Results

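The nuclear genes of the oxidative phosphorylation system were followed in mouse blood neutrophils from 6 LOY bone marrow transplant libraries and 6 Control bone marrow transplant libraries. LOY stands for loss of the Y chromosome, and the study asks how this loss in blood-forming cells bears on the heart. All rows whose gene symbol begins with Nduf, Sdha to Sdhd or Sdhaf, Uqcr, Cox4 to Cox8, Cox10 to Cox19 or Atp5 were taken, and 4 pseudogene rows were left out. This gave 89 genes of 11494 in the deposited table: 37 complex I subunits, 4 complex I assembly factors of the Ndufaf family, 4 complex II subunits, 2 complex II assembly factors, 8 complex III subunits, 11 complex IV subunits, 7 complex IV assembly factors and 16 ATP synthase genes. For each library 10000 cells positive for Ly6G and RFP and negative for CD115 were sorted from blood after red cell lysis. The libraries carry the genotype LOY or Control, and both groups have the treatment Control. Strain, age, how the chromosome was removed and what RFP marks are not given in the labels. Nor do the labels tie libraries to single mice, and p-values therefore reflect the scatter among libraries, which may be technical.

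Oxidative phosphorylation passes electrons from NADH through complexes I, III and IV, and from succinate through complex II, to oxygen, and ATP synthase uses the proton gradient built on the way. Most subunits are encoded in the nucleus and imported, some are encoded in mitochondrial DNA, and assembly factors bring the parts together without staying in the finished enzyme. Blood neutrophils make most of their ATP by glycolysis and hold few mitochondria, whose membrane potential is nevertheless used in chemotaxis and survival.

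Recovered reads ranged from 17097739 to 19616066 in LOY libraries and from 13743581 to 18459792 in Control libraries. Control 1, 2 and 12 had no reads for 20.5%, 21.7% and 17.3% of listed genes, whereas this share was 6.59% to 11.6% in every LOY library and the 3 remaining Control libraries. Results are therefore also given without these 3 libraries. The summed level of the Y-linked genes Ddx3y, Eif2s3y, Uty and Kdm5d was 39.3% of the Control mean in LOY 4, 2.99% in LOY 5 and at most 0.568% in the other 4 LOY libraries. The neutrophil markers S100a8 and S100a9 had the highest levels per kilobase of all marker genes, and all 12 neutrophil markers of the list were in the table. These 12 summed to 1355040 to 2024770 normalized reads in LOY and 1335090 to 2393580 in Control libraries. With limma 4 had positive and 8 negative estimates, and 0 had an adjusted p under 0.05. Among the 4, Ltf averaged 790 ± 508 in LOY and 99.3 ± 87.2 in Control libraries (SD). Camp averaged 183 ± 45.1 in LOY and 64.9 ± 84.8 in Control libraries. Among the 8, Ngp averaged 2148 ± 745 in LOY and 3223 ± 2617 in Control libraries. Lcn2, also among the 8, averaged 21744 ± 5447 in LOY and 24261 ± 8564 in Control libraries. The summed level of 10 erythroid markers was 635123 normalized reads in LOY 15, 95056 to 192254 in the other LOY libraries and 73674 to 143931 in Control libraries. Of 9 monocyte markers on the list 5 were in the table. They summed to 10632 to 16861 normalized reads in LOY and 6822 to 13326 in Control libraries. Most of this sum was Csf1r alone, which averaged 12442 ± 2295 in LOY and 9279 ± 2572 in Control libraries (SD). In sorted bulk samples, fewer cells of a type and less RNA per cell cannot be told apart.

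The genes differed far more from each other than between the groups. Levels were compared as normalized reads per kilobase of transcript, averaged over all 12 libraries. The highest was Cox8a, a small complex IV subunit, at 8685, and the lowest Sdhaf1, a complex II assembly factor, at 3.81. The median gene of complex IV stood at 2553, of complex III at 1875, of complex II at 1558, of ATP synthase at 1435 and of complex I at 620 on this scale. The assembly factors lay lower, with medians of 193 for the 2 Sdhaf genes, 189 for the 4 Ndufaf genes and 52.1 for the 7 complex IV factors. The last group was uneven. Cox17, the copper chaperone of complex IV, and Cox14, which binds newly made Cox1, stood at 4016 and 2714 per kilobase, while Cox11, another copper-delivery factor, stood at 15.3. These levels rest on 1 coding transcript per gene, the shortest principal one in GENCODE vM21, and a library that uses other transcripts would shift them. Exons of 35 of the genes overlap those of another annotated gene. The overlap was 1733 bases for Sdhaf1, 688 for Cox11 and 2130 for Cox16, the gene at the median of 52.1. Cox17 overlaps by 257 bases and stood high, while Cox18 at 17.4 and Ndufa5 at 18.8 per kilobase overlap no other gene. The part of overlaps in these levels was not tested.

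**Figure D1:**
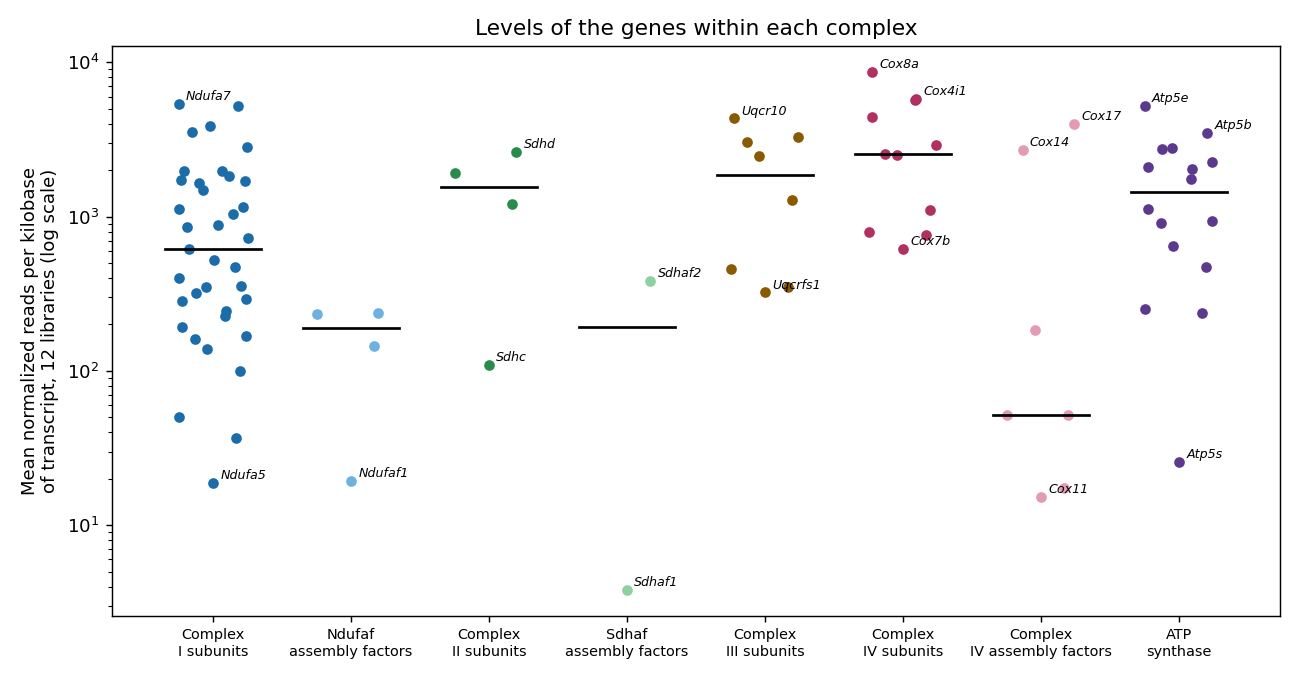
Each point is 1 gene, placed by its mean normalized reads per kilobase of transcript over 12 libraries on a log scale, and the bars are group medians. Complex IV subunits have the highest median at 2553, and complex IV assembly factors span from 15.3 for Cox11 to 4016 for Cox17.

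Of the 87 genes tested, 1 rose in LOY neutrophils and 0 fell (limma, Benjamini-Hochberg adjusted p under 0.05 over 9742 genes). Cox18 and Sdhaf1 had a value of 10 or more in fewer than 6 libraries and were not tested. Over all genes tested, 0.0205% rose and 0% fell by the same rule. The one that rose was Ndufaf1, which in human cells encodes a chaperone of the complex I membrane arm. It passed the filter on low values through exactly the 6 LOY libraries, so it had to differ to be tested with the filter.

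Ndufaf1 (chromosome 2, 119655446 to 119662827, minus strand, GRCm38) stood at 28.0, 29.5, 44.6, 52.7, 155 and 25.1 normalized reads in LOY 4, 5, 9, 10, 15 and 19. It stood at 2.15 normalized reads in Control 1 and at 0 in the other 5 Control libraries. The groups did not overlap, and LOY 15, with the highest Ndufaf1 level, was also the library with the highest erythroid sum. The other 5 LOY libraries, with erythroid sums of at most 192254, held 25.1 to 52.7. All 10 erythroid markers had positive estimates (limma), the largest that of Tfrc at 4.51 ± 1.02 (SE, limma adjusted p = 0.332). Like Ndufaf1, Tfrc was highest in LOY 15, at 163 normalized reads. It ran down to 1.73 in LOY 19 and stood at 0 to 10.5 in Control libraries. The part of erythroid RNA in the Ndufaf1 level was not tested. In recovered reads this was 374 over the LOY libraries and 2 over the Control libraries, a depth-adjusted ratio of 167 with a 95% counting interval of 46.0 to 1387. That interval covers counting error only. A count of 0 in a Control library allows up to 3 reads. The log2 fold change was 5.23 ± 0.67 (SE, limma adjusted p = 0.0278), and with no filter on low values the limma adjusted p was 0.0469. The deposited table lists no gene with a mean under 8.63, and Ndufaf1 reached this mean only through its LOY libraries. Both p-values therefore belong to a gene that was listed through its LOY values. All 6 LOY values lay above all 6 Control values in 0.175% of tested genes, but for Ndufaf1 passing the filter through the LOY libraries alone already fixed this order, so nothing is read from it.

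The call on Ndufaf1 did not hold in every setting. With 1 library left out the log2 fold change lay between 4.87 and 5.51, and the limma adjusted p lay between 0.0144 and 0.110. It missed the threshold without LOY 5, 9, 10, 15 or 19 or without Control 2 or 17. Without LOY 15 the log2 fold change was 4.87 (limma adjusted p = 0.0802). Without Control 1, 2 and 12 it was 5.51 (limma adjusted p = 0.155), and Ndufaf1 was then 0 in all 3 remaining Control libraries. Without LOY 4, which kept part of its Y-linked signal, the call held. On the recovered reads edgeR gave a log2 fold change of 6.93 (adjusted p = 0.288) and DESeq2 gave 7.28 (adjusted p = 5.21e-05). DESeq2 called 0.395% of genes as higher. In the authors' deposited table Ndufaf1 was the 1 gene of the 89 with an adjusted p under 0.05, at 5.12e-05. Its log2 fold change there was the same 7.28 as with DESeq2, and that of Sdhd was −0.346 in both. The authors' values and those of DESeq2 are therefore not separate results.

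Ndufaf1 does not share exon sequence with another annotated gene. Its nearest listed neighbours were Nusap1, a mitotic spindle gene that ends 4201 bases before it, and H3f3c, a histone variant gene that starts 2798 bases after it. Nusap1 was above 0 in 1 LOY library, LOY 15, at 75.0 normalized reads, and in 2 Control libraries at 1.08 and 39.3. H3f3c averaged 61.0 ± 14.9 normalized reads in LOY and 75.8 ± 15.1 in Control libraries (SD, n = 6 each), and its reads may be split with other histone H3 genes. For both neighbours LOY and Control values overlapped. The separation of the groups in Ndufaf1 was fixed by the filter, so nothing is read from this contrast.

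The promoter window of Ndufaf1 is shown because this is the gene that rose, and that of Sdhd because it had the next smallest p. Both are RefSeq windows on GRCm38.p6, written 5′ to 3′ on the gene's strand, from 250 bases before the start to 50 after it. Capitals mark matches to motifs of factors known for respiratory chain genes: the ETS family core CCGGAAG, bound by the Gabpa and Gabpb1 pair, and the NRF1 consensus, which allows either of a pair of bases at some places. The YY1 core ATGGCGG was searched as well. Both strands were read, and no motif contains another. Ndufaf1 spans chr2:119662785-119663084 and Sdhd chr9:50603800-50604099, both on the minus strand.
Ndufaf1: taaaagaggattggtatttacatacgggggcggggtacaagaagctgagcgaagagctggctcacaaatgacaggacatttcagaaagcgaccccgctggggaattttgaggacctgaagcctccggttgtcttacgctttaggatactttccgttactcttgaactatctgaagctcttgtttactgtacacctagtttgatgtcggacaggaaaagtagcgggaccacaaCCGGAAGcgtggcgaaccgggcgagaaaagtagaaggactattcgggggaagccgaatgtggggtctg
Sdhd: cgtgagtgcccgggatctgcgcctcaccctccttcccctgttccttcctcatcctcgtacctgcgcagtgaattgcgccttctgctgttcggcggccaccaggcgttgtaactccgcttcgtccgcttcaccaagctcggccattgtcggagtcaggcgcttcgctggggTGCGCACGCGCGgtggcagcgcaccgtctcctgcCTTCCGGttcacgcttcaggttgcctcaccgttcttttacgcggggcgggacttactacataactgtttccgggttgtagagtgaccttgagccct
In Ndufaf1 an ETS match begins 18 bases before the start. In Sdhd an ETS match on the opposite strand begins 46 bases and an NRF1 match 80 bases before the start. Of the 76 member genes with a window, 23 held the ETS letters, 30.3% against 9.93% of all 27025 genes with a window, listed in these data or not. An NRF1 match was in 7 of them, 9.21% against 1.41% of all genes. The YY1 core was in 13, 17.1% against 4.69%. At least 1 of the 3 motifs was found in 39 of the 76 windows and none in 37. These matches describe the letters and say nothing of binding.

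The other 3 Ndufaf genes did not pass the test. Ndufaf7, an arginine methyltransferase that acts on a complex I core subunit, averaged 399 ± 106 normalized reads in LOY and 418 ± 165 in Control libraries (SD, n = 6 each), a log2 fold change of 0.00 ± 0.33 SE. Ndufaf3, an early assembly factor, averaged 216 ± 125 in LOY and 213 ± 100 in Control (−0.01 ± 0.54). Its exons overlap those of Impdh2 on the opposite strand, and the library kit does not mark strand. Ndufaf8 averaged 168 ± 69.6 in LOY and 202 ± 104 in Control (−0.11 ± 0.50), with LOY 10 at 303 above the other LOY libraries at 113 to 167. The 95% intervals of Ndufaf3 and Ndufaf8 reached from −1.19 to 1.16 and from −1.19 to 0.96, so changes of 2-fold were not excluded for either. Without Control 1, 2 and 12 their log2 fold changes were −0.51 for Ndufaf3 and 0.48 for Ndufaf8. The summed level of the 4 genes was 839 ± 183 normalized reads in LOY and 833 ± 214 in Control libraries. Within it Ndufaf1 and Ndufaf3 averaged higher in LOY libraries, and Ndufaf7 and Ndufaf8 averaged lower.

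**Figure D2:**
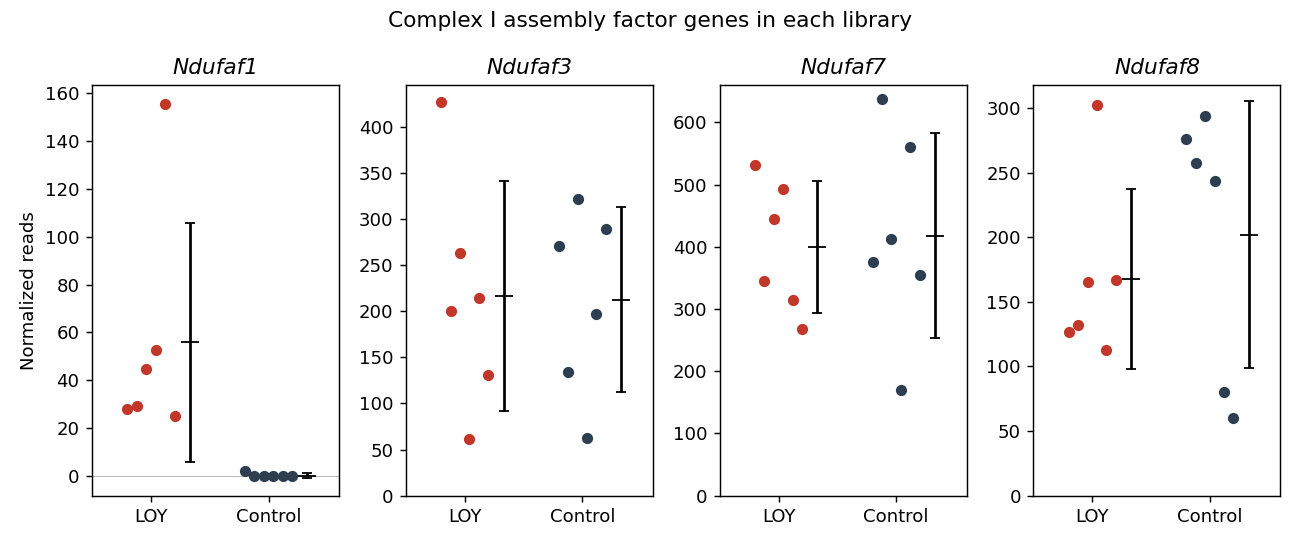
Points are normalized reads of 4 complex I assembly factor genes in each of 6 LOY and 6 Control libraries, on a separate linear axis per gene, with mean and SD. Ndufaf1 reaches 25.1 to 155 in LOY and 0 to 2.15 in Control libraries, while the other 3 genes overlap between groups.

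In human cells the protein of Ndufaf1 works in a complex with those of Ecsit, Acad9, Tmem126b and Timmdc1. Ecsit was above 0 in 3 LOY libraries, at 7.38, 16.7 and 86.4 normalized reads, and in 2 Control libraries, at 1.01 and 0.875, and was too low to be tested. Acad9 was also uneven, above 0 in 4 LOY libraries with up to 144 and in 3 Control libraries with up to 193 normalized reads (log2 fold change −0.01 ± 1.98 SE). Tmem126b averaged 194 ± 85.4 normalized reads in LOY and 160 ± 110 in Control libraries (0.99 ± 0.95, and 0.29 with edgeR), and Control 2 stood at 2.56. Timmdc1 averaged 86.1 ± 43.2 in LOY and 64.5 ± 16.7 in Control libraries (0.25 ± 0.54). The limma adjusted p of the 3 tested genes was 0.855 or more, and values overlapped between groups for all 4.

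Among the 37 complex I subunits 0 passed the test, 15 had positive and 22 negative estimates, and the median log2 fold change was −0.10, beside 0.14 for all tested genes. With edgeR 9 were positive and 28 negative, with medians of −0.14 for these genes and −0.01 for all. Unadjusted p under 0.05 was reached by 2, both lower in LOY, beside 1.63% of all tested genes. Ndufb6, an accessory subunit of the membrane arm, had a lowest, median and highest level of 299, 381 and 432 normalized reads in LOY and 381, 536 and 930 in Control libraries. The ranges overlapped through Control 17 alone, and Control 1 was the highest. Its log2 fold change was −0.61 ± 0.23 (SE, limma adjusted p = 0.785) and −0.43 without Control 1, 2 and 12. Its exons overlap Smim27 on the opposite strand. Ndufs4, an accessory subunit at the electron input module, stood at 174, 357 and 442 normalized reads in LOY and 356, 490.5 and 658 in Control libraries. Its log2 fold change was −0.65 ± 0.28 (limma adjusted p = 0.810), and −0.72 without Control 1, 2 and 12, when its LOY values lay below the 3 remaining Control values, as did 1.26% of tested genes.

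The 7 core subunits, which carry the flavin and iron-sulfur clusters, had 6 negative and 1 positive estimate. The positive one was Ndufv1, the flavin-binding subunit and NADH entry point, at 470, 635 and 871 normalized reads in LOY and 7.53, 277 and 689 in Control libraries (lowest, median and highest). Its log2 fold change was 1.73 ± 0.86 (SE, limma adjusted p = 0.810) and 0.59 without Control 1, 2 and 12. Control 1, at 7.53, was far below the other 5 Control libraries. The core median was −0.26 over all libraries and −0.01 without Control 1, 2 and 12. Ndufv1 was named after its values were seen. The most abundant complex I genes per kilobase were the accessory subunits Ndufa7 and Ndufa3. Ndufa7 averaged 2645 ± 514 normalized reads in LOY and 3021 ± 284 in Control libraries (log2 fold change −0.21 ± 0.13 SE). Ndufa3 averaged 2537 ± 571 in LOY and 2824 ± 394 in Control libraries (−0.17 ± 0.15). Ndufa4, named for complex I but now counted with complex IV, averaged 897 ± 89.8 in LOY and 909 ± 344 in Control libraries (0.13 ± 0.34), and Control 2 was low at 242.

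Complex II, succinate dehydrogenase, had 4 subunit genes, and 0 passed the test. Sdhd, a membrane anchor, stood at a lowest, median and highest level of 2528, 2767 and 3422 normalized reads in LOY and 2963, 3674 and 4084 in Control libraries. LOY values lay lower, but LOY 9 and 19 overlapped with the lower Control libraries. The log2 fold change was −0.34 ± 0.11 (SE, 95% interval −0.58 to −0.10, limma unadjusted p = 0.00853, adjusted p = 0.676), and it was −0.19 without Control 1, 2 and 12. Sdha, the flavoprotein that oxidises succinate, leaned the other way, at 2902, 4188 and 4465 normalized reads in LOY and 1518, 3212 and 3975 in Control libraries (0.42 ± 0.21, limma adjusted p = 0.810). Sdhb, the iron-sulfur subunit, averaged 2119 ± 311 in LOY and 2259 ± 497 in Control libraries (−0.07 ± 0.16). Sdhc, the other anchor, averaged 352 ± 96.2 in LOY and 344 ± 47.4 in Control libraries (0.00 ± 0.24). The 4 genes summed to 9270 ± 1113 normalized reads in LOY and 9261 ± 922 in Control libraries.

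Neither complex II assembly factor passed a test. Sdhaf2, which helps attach flavin to Sdha, stood at 714, 849 and 1251 normalized reads in LOY and 841, 1356 and 1847 in Control libraries (lowest, median and highest). The ranges overlapped, and the log2 fold change of −0.53 ± 0.22 (SE, limma adjusted p = 0.806) was −0.33 without Control 1, 2 and 12. Its exons overlap those of Cpsf7 on the opposite strand. Sdhaf1, an iron-sulfur assembly factor, was above 0 in 3 LOY libraries with up to 14.5 normalized reads and in 2 Control libraries with 63.7 and 28.9, and was not tested.

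In complex III, the cytochrome bc1 complex, 0 of 8 genes passed, with 2 positive and 6 negative estimates and a median log2 fold change of −0.15. Uqcrc1, a core subunit outside the electron path, stood at 2243, 2553 and 2925 normalized reads in LOY and 821, 1933 and 2288 in Control libraries (lowest, median and highest). Only Control 6 reached into the LOY range, and Control 12 and 17 were the lowest at 821 and 1140. Its log2 fold change was 0.66 ± 0.23 (SE, limma unadjusted p = 0.0147, adjusted p = 0.762) and 0.53 without Control 1, 2 and 12. Uqcrc2, its partner, averaged 730 ± 81.2 in LOY and 599 ± 176 in Control libraries (0.34 ± 0.22), and is named after its values were seen. The small subunits had negative estimates. Uqcr11 averaged 1364 ± 207 normalized reads in LOY and 1573 ± 197 in Control libraries (−0.21 ± 0.13). Uqcr10 averaged 1696 ± 337 in LOY and 2070 ± 640 in Control libraries (−0.26 ± 0.19), with Control 2 highest at 3300. Uqcrh, the hinge subunit, averaged 1314 ± 313 in LOY and 1388 ± 252 in Control libraries (−0.10 ± 0.19).

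All 11 subunit genes of complex IV, cytochrome c oxidase, like the 4 of complex II, had a 95% interval within 2-fold in either direction, 0 passed the test and 0 had an unadjusted p under 0.05. Cox8a averaged 4635 ± 249 normalized reads in LOY and 4918 ± 687 in Control libraries (SD, n = 6 each), a log2 fold change of −0.08 ± 0.10 SE. Cox4i1, a nuclear subunit that regulates the enzyme, averaged 4297 ± 944 in LOY and 4359 ± 422 in Control libraries (−0.04 ± 0.13). Cox6b1 averaged 3458 ± 732 in LOY and 3590 ± 607 in Control libraries (−0.06 ± 0.15). LOY 10 was the highest LOY library for Cox4i1 and Cox6b1, at 6072 and 4886. Cox6a1 averaged 2491 ± 154 in LOY and 2555 ± 496 in Control libraries (−0.02 ± 0.13). Cox7a2 averaged 1634 ± 242 in LOY and 1662 ± 383 in Control libraries (0.00 ± 0.17). Its relative Cox7a2l, known for joining complexes III and IV into supercomplexes, averaged 872 ± 268 in LOY and 840 ± 303 in Control libraries (0.10 ± 0.32). Cox5a and Cox7c had the smallest p of the group, with log2 fold changes of −0.19 ± 0.21 and −0.28 ± 0.25. Cox7b, which is X-linked, averaged 594 ± 133 in LOY and 648 ± 318 in Control libraries (−0.05 ± 0.28), and Control 2 stood at 1277. The muscle or tissue-restricted forms of these subunits were not among the rows matched here.

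The complex IV assembly factors had 6 positive estimates among 6 tested, with a median log2 fold change of 0.21, but 0 passed and 0 had an unadjusted p under 0.05. With edgeR and with quantile normalization 5 of the 6 were positive, with medians of 0.06 and 0.09. Cox17 averaged 1786 ± 156 normalized reads in LOY and 1781 ± 312 in Control libraries (0.02 ± 0.13). Cox14 averaged 1982 ± 214 in LOY and 1943 ± 173 in Control libraries (0.03 ± 0.11). Cox15, which makes heme A, averaged 285 ± 105 in LOY and 211 ± 181 in Control libraries. Its Control values ran from 1.28 in Control 2 to 466 in Control 1, and its log2 fold change of 1.59 ± 1.13 had an interval of −0.87 to 4.05. It was 0.45 with edgeR and 0.89 without Control 1, 2 and 12. Cox16, which helps build the copper-carrying subunit Cox2, averaged 114 ± 45.6 in LOY and 94.7 ± 60.4 in Control libraries (0.41 ± 0.54, and 0.78 without Control 1, 2 and 12). Cox18, an inserter of Cox2, was above 0 in 6 LOY and 3 Control libraries, with 1 Control library at 66.5 and LOY values of 0.864 to 132.

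ATP synthase had 16 genes, of which 0 passed, 4 had positive and 12 negative estimates, and the median log2 fold change was −0.10. Atp5b, the catalytic beta subunit, averaged 6832 ± 388 in LOY and 6579 ± 808 in Control libraries (0.06 ± 0.09). Its 95% interval of −0.13 to 0.26 was the narrowest of the genes named here. Atp5e, the epsilon subunit, averaged 2088 ± 306 in LOY and 2332 ± 412 in Control libraries (−0.16 ± 0.14). Atp5j2, the f subunit of the membrane part, averaged 1534 ± 261 in LOY and 1818 ± 392 in Control libraries (−0.24 ± 0.16). The 5 subunits of the catalytic F1 part summed to 14906 ± 968 normalized reads in LOY and 14808 ± 1088 in Control libraries.

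The 3 Atp5g genes encode the same mature c subunit of the rotor ring. Over all libraries Atp5g3 stood highest per kilobase at 649, with Atp5g1 at 254 and Atp5g2 at 238. Atp5g3 stood at a lowest, median and highest level of 269, 424 and 460 normalized reads in LOY and 491, 530.5 and 556 in Control libraries. All 6 LOY values lay below all 6 Control values, which held for 0.113% of tested genes, and LOY 15 was the lowest. Its log2 fold change was −0.40 ± 0.18 (SE, 95% interval −0.80 to −0.0012, limma unadjusted p = 0.0494, adjusted p = 0.810) and −0.39 without Control 1, 2 and 12. Atp5g1 averaged 187 ± 101 normalized reads in LOY and 116 ± 43.2 in Control libraries (0.59 ± 0.48), and Atp5g2 averaged 93.4 ± 20.5 in LOY and 117 ± 55.9 in Control libraries (−0.16 ± 0.50). Atp5s, also called factor B and named after its values were seen, stood at 0 to 44.3 normalized reads in LOY and 0 to 142 in Control libraries. Control 1 and 2 were at 0, the other 4 Control libraries at 55.1 to 142, and the log2 fold change of −2.02 ± 1.58 was −3.97 without Control 1, 2 and 12 (limma unadjusted p = 0.0157). All 6 LOY values were then below the 3 remaining Control values, the pattern shared with 1.26% of tested genes.

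**Figure D3:**
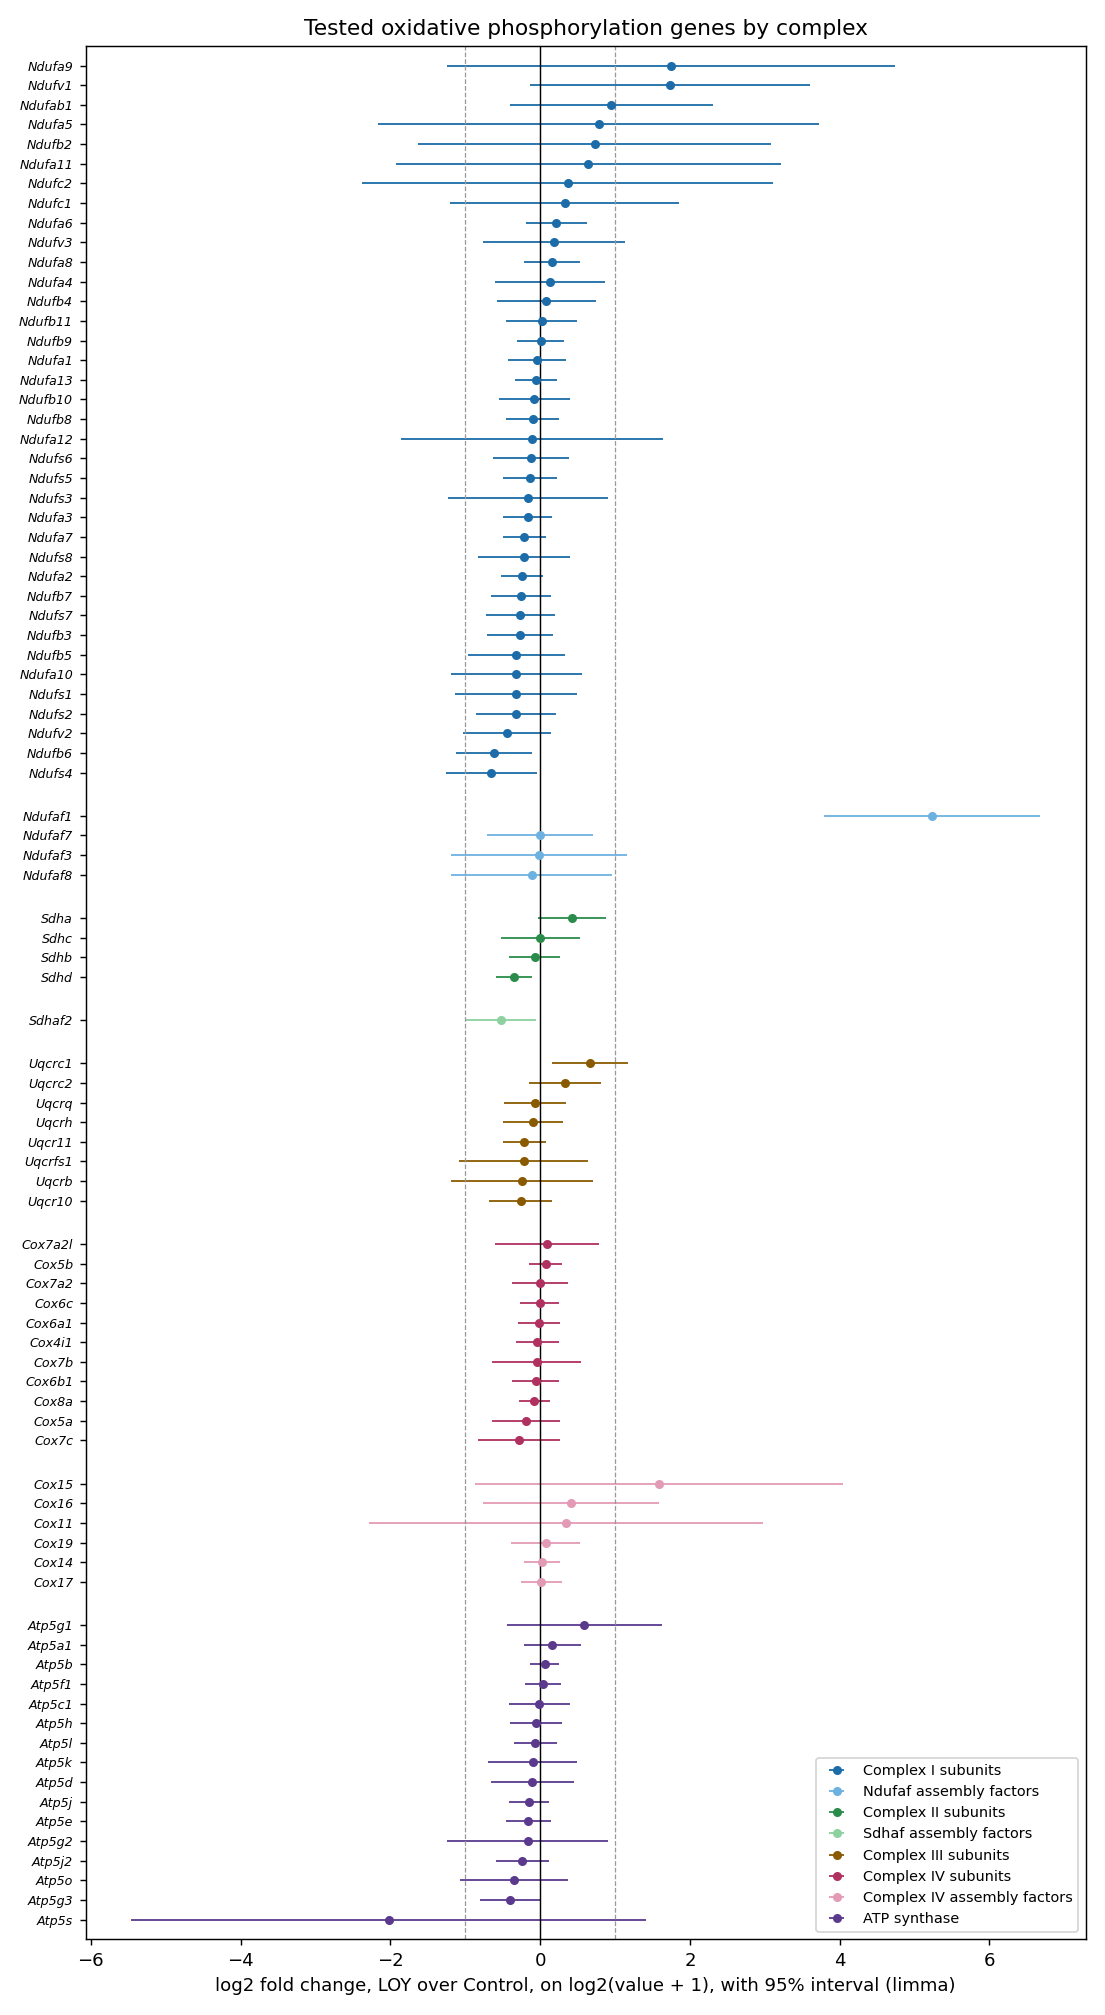
Each point is the limma log2 fold change of 1 tested gene, LOY over Control, on log2(value + 1), with its 95% interval, grouped by complex; dashed lines mark 2-fold. Ndufaf1 at 5.23 lies apart, and the widest intervals, such as that of Atp5s, belong to genes with libraries at 0.

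Over all 87 tested genes 33 estimates were positive and 54 negative, with a median log2 fold change of −0.06 beside 0.14 for all tested genes. The 0.14 shift of all genes depended on the scale. With edgeR the medians were −0.08 for these genes and −0.01 for all tested genes, and with quantile normalization −0.03 and 0.00. Without Control 1, 2 and 12 they were −0.03 for these genes and −0.01 for all. At an unadjusted p under 0.05, 2 genes were higher in LOY, Ndufaf1 and Uqcrc1, beside 4.4% of all tested genes. At the same p 5 were lower, Sdhd, Ndufb6, Sdhaf2, Ndufs4 and Atp5g3, beside 1.63%. Without Control 1, 2 and 12 the counts were 2 higher, beside 3.27% of tested genes, and 1 lower, beside 1.8%. With edgeR 2 were higher and 3 lower at an unadjusted p under 0.05, beside 1.44% and 1.5% of all genes, and 0 passed after adjustment.

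The summed level was close in both groups. The 89 genes together held 104426 ± 8841 normalized reads in LOY and 108609 ± 6231 in Control libraries (SD, n = 6 each), a LOY minus Control difference of −4182 that is smaller than the SD of either group and was −153 without Control 1, 2 and 12. Per 1000000 reads of the listed genes they took 6421 ± 547 in LOY and 6513 ± 205 in Control libraries. LOY over Control ratios of the sums were 0.921 for complex I, 1.00 for complex II, 1.01 for complex III, 0.971 for complex IV and 0.972 for ATP synthase. Only the 2 Sdhaf genes, carried almost wholly by Sdhaf2, stood further from 1, at 0.682. Single libraries were high or low for many genes at once. LOY 10 was the highest LOY library for 32 of the 89 genes and LOY 15 the lowest for 24. Control 2 was the highest Control library for 26 and Control 12 the lowest for 24. These counts were not made over all listed genes, so they are not read as particular to this set.

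**Figure D4:**
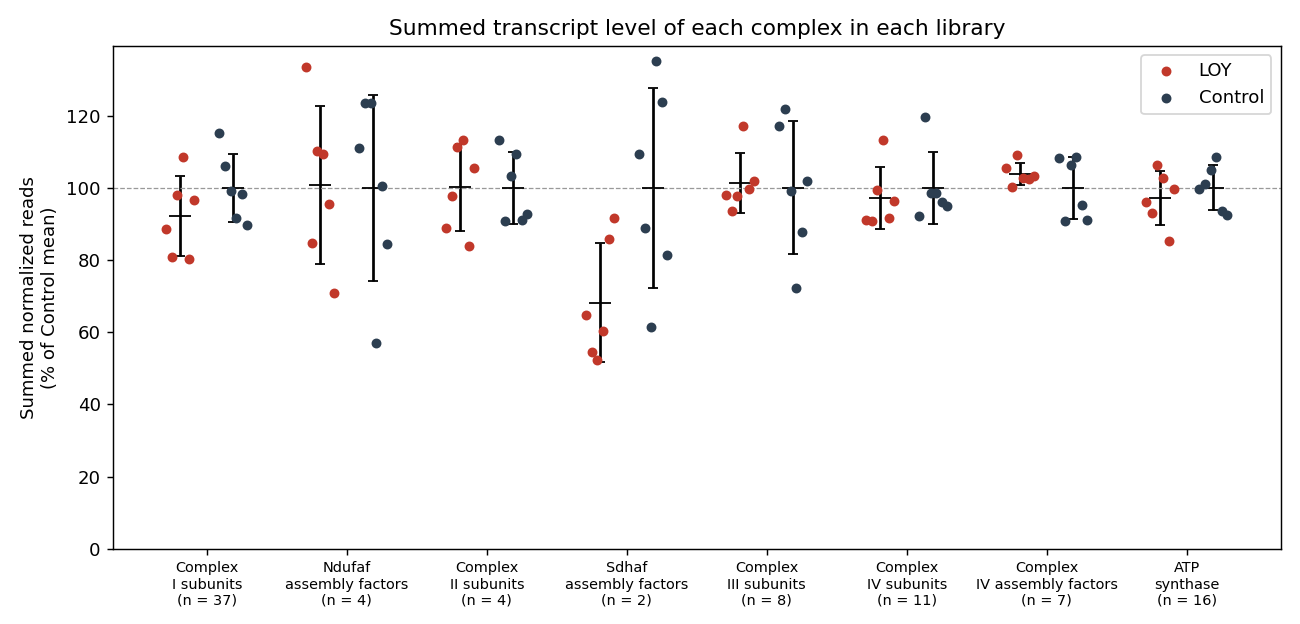
Points are summed normalized reads of each complex per library, as a percentage of the Control mean of that complex, for 6 LOY and 6 Control libraries, with mean and SD. Groups overlap in every complex, and the 2 Sdhaf genes have the lowest LOY mean, a ratio of 0.682 to Control.

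The precision of these values followed the level. The 95% interval lay within 2-fold in either direction for 57 of the 87 genes, 65.5%, against 30.7% of all tested genes. Among genes with a mean of 500 normalized reads or more it did so for 47 of 52, 90.4%, against 72.4% of all tested genes at that level. The median coefficient of variation of the 89 genes was 22.1% over LOY and 27.8% over Control libraries, against 45.9% and 68.5% over all listed genes. In at least 1 library 9 of the 89 genes were at 0, 10.1% against 36.7% of all listed genes. Those 9 were Ndufa5, Ndufa9, Ndufa11, Ndufc2, Ndufaf1, Sdhaf1, Cox11, Cox18 and Atp5s. Sdhaf1 and Cox18 were not tested. The 6 tested beside Ndufaf1 did not pass, and each had a 95% interval that reached beyond 2-fold in both directions over all libraries.

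**Figure D5:**
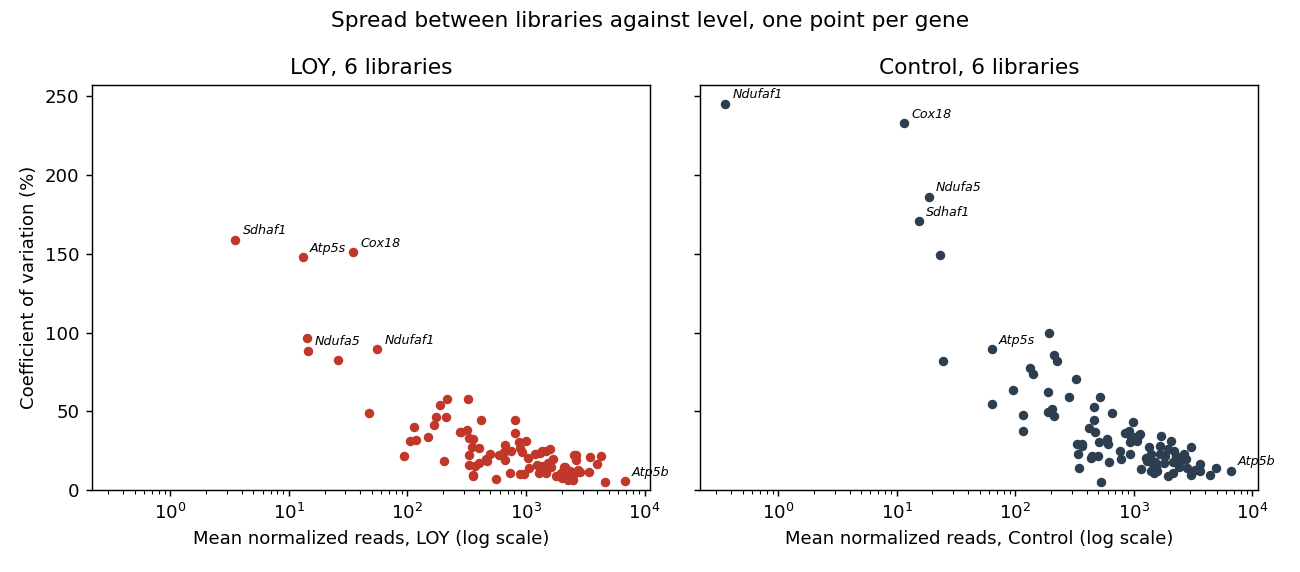
Each point is 1 of the 89 genes, with mean normalized reads on a log axis and the coefficient of variation between libraries in percent, for 6 LOY libraries at left and 6 Control libraries at right. Spread falls with level, and Ndufaf1 is the farthest left of the Control points.

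Other genes of the pathway were taken from lists chosen with earlier results of these data known, and 0 genes of any list passed the test (limma). Of the 13 mitochondrially encoded subunits, 10 were listed and tested, 2 with positive and 8 with negative estimates and a median log2 fold change of −0.19. They summed to 8510 ± 1588 normalized reads in LOY and 9329 ± 2209 in Control libraries. Of 8 tested complex I assembly and related genes 5 were positive and 3 negative. Of 7 tested other complex III genes, which include Cyc1 and Cycs, 5 were positive and 2 negative, but their median log2 fold change of 0.43 with limma was −0.12 with edgeR, and their summed level was 1483 ± 309 normalized reads in LOY and 1586 ± 202 in Control libraries. Of 10 tested other complex IV factors 3 were positive and 7 negative. All 6 other ATP synthase genes had negative estimates, with a median of −0.20. Among them Tmem70, an assembly factor, averaged 173 ± 92.9 normalized reads in LOY and 388 ± 153 in Control libraries (log2 fold change −1.23 ± 0.43 SE, limma unadjusted p = 0.0147, adjusted p = 0.762).

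Of 9 tested regulators of respiratory genes 2 were positive and 7 negative. Gabpa, whose protein binds the ETS motif, averaged 430 ± 286 normalized reads in LOY and 661 ± 220 in Control libraries (−0.85 ± 0.47, and −0.61 with edgeR). Its exons overlap those of Atp5j on the opposite strand. Nrf1, which binds the NRF1 motif, averaged 1289 ± 244 in LOY and 1343 ± 446 in Control libraries (−0.01 ± 0.24). Mtor, a growth kinase, averaged 173 ± 50.5 in LOY and 318 ± 109 in Control libraries (−0.85 ± 0.34, limma unadjusted p = 0.0247, adjusted p = 0.794). Of 15 tested genes of mitochondrial mass and import 13 were positive and 2 negative, with a median of 0.13, near that of all tested genes. The ADP and ATP carrier Slc25a4 averaged 36.2 ± 19.6 normalized reads in LOY and 6.55 ± 16.1 in Control libraries (3.65 ± 1.25, limma adjusted p = 0.762, and 2.46 with edgeR), and its relative Slc25a5 averaged 6728 ± 614 in LOY and 6726 ± 1464 in Control libraries. Of 13 tested genes of the tricarboxylic acid cycle 7 were positive and 6 negative. Dlat, a pyruvate dehydrogenase subunit, averaged 103 ± 52.2 in LOY and 280 ± 148 in Control libraries (−1.39 ± 0.56, limma adjusted p = 0.794).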

How the data were processed

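Neutrophil RNA of 6 LOY and 6 Control samples was turned into libraries with SMART-Seq v4 and Nextera XT, per the labels' protocols, a chemistry that does not mark strand. Tools named in the submitters' processing notes are Trimmomatic 0.36, STAR 2.5.2b, bcl2fastq 2.17, Subread 1.5.2 and featureCounts, with builds mm10 and GRCm38. The deposited table gives 11494 genes, each with a normalized signal in every library. In every library 100.0% of the nonzero values were whole multiples of a single step (tolerance 0.02 reads), which makes the deposited signal a read count over 1 size factor. Columns of p-values and log2 fold changes by the authors are included too, per the file headers. Their tool is not given in the sources used, but the log2 fold changes matched those of DESeq2 on recovered reads, as for Atp5a1 and Sdhd. Genes with a mean under 8.63 are not in it.

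The 89 member genes and all lists were chosen with earlier results of these data known. The values log2(value + 1) were tested with limma 3.58.1 (R 4.3.3; trended, robust empirical Bayes; no covariate) for the 9742 genes that reached 10 in 6 or more libraries, with Benjamini-Hochberg adjustment over them and a threshold of 0.05. On this scale the change of low genes is understated, and libraries near 0 in 1 group can make it exceed the fold of the means. Alternatives were edgeR 4.0.16 and DESeq2 1.42.0 on recovered reads, quantile and TMM scaling, other filters and pseudocounts, the share of genes without reads as a covariate, and left-out libraries. The script was tested on simulated counts with known changes. Genes named were those past the threshold, the 2 with the smallest p and the 2 with the highest level per kilobase in each group, and families with several genes for 1 subunit. Ndufaf3, Sdhc, Cox11, Cox18, the genes at 0, the pathway genes and those said to be named after their values were seen lie outside this rule. GENCODE vM21 gave positions and held 11472 of the listed identifiers, and RefSeq gave promoter windows.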

Additional observations from a re-analysis of the deposited data

Results flagged for a closer look

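In 90 groups of 6 libraries, 2 for each of 36 named genes and 9 sums, 17 libraries stood apart from the other 5 of their group by Dixon's criterion. Chance flags about 1 in 20 groups. The genes share libraries, so these are not independent.

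Among LOY libraries, LOY 10 stood highest for Ndufaf8 at 302.6 normalized reads (others 113 to 167), Sdhb at 2738 (others 1883 to 2083), Cox4i1 at 6072 (others 3424 to 4341), Cox6b1 at 4886 (others 2914 to 3454) and the summed complex III subunits at 10938 (others 8725 to 9520). LOY 15 was highest for Ndufaf1 at 155 (others 25.1 to 52.7) and lowest for Atp5g3 at 269 (others 399 to 460). LOY 19 was highest for Ndufa3 at 3648 (others 2036 to 2501). LOY 4 was highest for Sdhaf1 at 14.5 (others 0 to 4.10).

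Among Control libraries, Control 2 stood highest for Ndufa7 at 3563 normalized reads (others 2762 to 3038), Uqcr10 at 3300 (others 1454 to 2062), Cox7c at 876 (others 327 to 434), Cox7b at 1277 (others 419 to 633) and the summed complex IV subunits at 28042 (others 21602 to 23083). It was lowest for Ndufa4 at 242 (others 866 to 1145). Control 1 was highest for Uqcr11 at 1955 (others 1419 to 1583) and for Ndufaf1 at 2.15, which is 2 reads beside 5 libraries at 0. Control 2 is one of the 3 libraries with the most genes at 0, at 21.7%; the part of this in its levels was not tested.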

How the results depend on the processing

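No paired analysis was possible because LOY and Control libraries share no replicate number. The count of member genes past the threshold, 1 in the main setting, was 0 with edgeR, quantile normalization, a mean of 50 or more (where Ndufaf1 was not tested), the covariate for genes without reads, and without Control 1, 2 and 12 (limma and edgeR), and 0 to 1 with 1 library left out. The count over all genes, 2 in the main setting, was 54 with DESeq2, 0 in each of those settings that gave 0 members, and 0 to 17 with 1 library left out, with 17 without Control 6, 7 without Control 18, 5 without Control 12, 3 without LOY 4 and 1 without Control 1 or 17. With edgeR 286 genes had an unadjusted p under 0.05. The log2 fold change of Ndufaf1 ranged from 3.24 to 8.95 over 22 alternatives, with adjusted p from 5.21e-05 to 0.740, and passed in 10. The members' median log2 fold change stayed negative throughout, and the LOY minus Control difference in the summed level ran from −6837 to −2192 with 1 library left out. Of 804 alternative values for 35 tested named genes 80 changed sign, in 16 genes, none past the threshold. The cause of these differences was not tested. Genes with libraries at 0 had wide intervals, and the part of depth in this was not tested.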
